A study of Mus musculus with 26 samples.

Results

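Microglia that had lost both copies of Grn were set against microglia that kept a single copy, in mice whose Tmem106b was intact. The libraries were chosen by genotype label, TMEM WT GRN KO (n = 4) and TMEM WT GRN HET (n = 5), which makes 9 of the 26 libraries in the series. The series holds 7 genotype groups, in which Grn KO and Grn HET occur with Tmem106b WT or HET and Tmem106b KO occurs with Grn WT alone, and this comparison asks what the loss of the second Grn copy adds where Tmem106b is untouched. Poly(A) RNA of microglia was amplified from low input and sequenced, and exonic reads were counted per gene. Replicate numbers were given here in the order of the samples and are names, with no pairing between groups. Of the Grn KO libraries, replicate 1 was labelled male and replicates 2, 3 and 4 female, and the dissection was labelled Hemi in replicate 2 and Entire in the others. Of the Grn HET libraries, replicate 5 was labelled male and replicates 1 to 4 female, and the dissection was labelled Hemi in replicates 2 and 5 and Entire in the others. Values from TMEM HET GRN KO (n = 3) and TMEM HET GRN HET (n = 3) libraries, which are labelled HET for Tmem106b too, and from TMEM WT GRN WT libraries (n = 3) are given beside them where stated. The TMEM HET GRN KO libraries were labelled female, female and male and Entire, Entire and Hemi, the TMEM HET GRN HET libraries male, female and male and all Entire, and the TMEM WT GRN WT libraries male, female and male and Entire, Hemi and Entire. The kind of Grn allele, the strain and age of the mice, the way the microglia were isolated, and the meaning of the dissection labels are not given in the sources used here. Nor do the labels say that each library came from its own animal, so the p-values rest on a spread between libraries that may be technical in part.

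Grn encodes progranulin, a secreted glycoprotein that cells take up or sort to lysosomes, where it is cut into granulin peptides and supports the activity of lysosomal enzymes. In the brain it is made in large part by microglia, the resident macrophages. In humans, loss of a single GRN copy causes frontotemporal dementia, and loss of both copies causes a form of neuronal ceroid lipofuscinosis, a lysosomal storage disease. TMEM106B, which sits in the membrane of lysosomes and late endosomes, is a genetic modifier of GRN-linked dementia. Lysosomal genes are switched on together by the transcription factors TFEB, TFE3 and MITF, which bind the CLEAR element in promoters.

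The genotype labels held up in the targeted gene. Levels are given as CPM, counts scaled to the TMM-adjusted library total, and are listed in replicate order. Each SE was derived from the edgeR F statistic, as the size of the log2 fold change divided by its square root. Grn (ENSMUSG00000034708, chromosome 11, 102430315 to 102437048, GRCm38) was at 0.138, 16.0, 3.22 and 0 CPM in Grn KO libraries, against 1626, 824, 1736, 1782 and 1103 CPM in Grn HET libraries and 3897, 2299 and 3838 CPM in Grn WT libraries. No Grn KO library came near a Grn HET library, and Grn KO replicate 2 held the most Grn of the 4 (log2 fold change -8.66 with SE 1.51, edgeR adjusted p = 0.00648). A two-sided exact permutation test of the mean log2(CPM + 1) gave p = 0.0159, the smallest that the 126 splits of 4 against 5 libraries allow (0.0317 with Benjamini-Hochberg adjustment over 2 tests). Tmem106b (ENSMUSG00000029571, chromosome 6, 13069759 to 13089269) was at 102, 72.1, 60.3 and 66.0 CPM in Grn KO, against 80.7, 57.5, 67.7, 61.7 and 84.3 CPM in Grn HET. Those ranges overlapped (log2 fold change 0.06 with SE 0.19, edgeR adjusted p = 0.949, exact permutation p = 0.698).

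The 9 libraries held 41033604 to 63710833 counts. Pairs of replicates within the 2 groups differed by a chi-square of 32.0 to 586 per gene, so none was the same library deposited again. How far amplified libraries of a single animal differ was not tested, so these values do not show that each came from its own animal. All 10 microglia markers were detected. They summed to 31161, 24706, 31874 and 28809 CPM of the plain library total in Grn KO, against 50201, 28411, 49087, 47337 and 34313 CPM in Grn HET. These ranges overlapped over all libraries but not within a dissection label. Among Entire libraries Grn KO held 28809 to 31874 CPM and Grn HET 47337 to 50201 CPM. Hemi libraries held 24706 CPM in Grn KO and 28411 and 34313 CPM in Grn HET. In edgeR 0 of the 10 markers passed, with a median log2 fold change of -0.67. At an unadjusted p under 0.05, 5 were lower and 0 higher. Transcripts of other brain cells were uneven between libraries. Choroid plexus and ependymal markers summed to 26.8, 433, 829.2 and 50.9 CPM in Grn KO, against 81.6, 4158, 379.8, 4642 and 27547 CPM in Grn HET. Oligodendrocyte markers reached 10843 CPM in Grn KO replicate 2, and neuron markers reached 2934 CPM in Grn HET replicate 2. Grn HET replicate 4, labelled female, held 28.3 CPM of Y-linked genes, against at most 10.1 CPM in the other female and at least 159 CPM in the male libraries of these 2 groups. In bulk RNA, fewer cells of a type and less RNA per cell cannot be told apart.

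In Grn KO microglia 145 genes rose and 56 fell against Grn HET microglia, Grn included, of 21371 tested (edgeR quasi-likelihood F-test, Benjamini-Hochberg adjusted p under 0.05). The genes that passed made up 0.941% of those tested, with 0.678% higher and 0.262% lower. At an unadjusted p under 0.05 the count was 2477 genes. Of the higher genes, 122 had a log2 fold change of at least 1 and 54 of at least 2, and of the lower genes 37 and 4 fell that far. In 138 of the 145 higher genes every Grn KO library lay above every Grn HET library, where 4.58% of all genes tested did so. In 45 of the 56 lower genes every Grn KO library lay below every Grn HET library, where 2.69% of all genes tested did so. Both sets of genes were chosen on the difference between these same libraries, so these counts are a description. The median log2 fold change over all genes was 0.03.

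**Figure D1:**
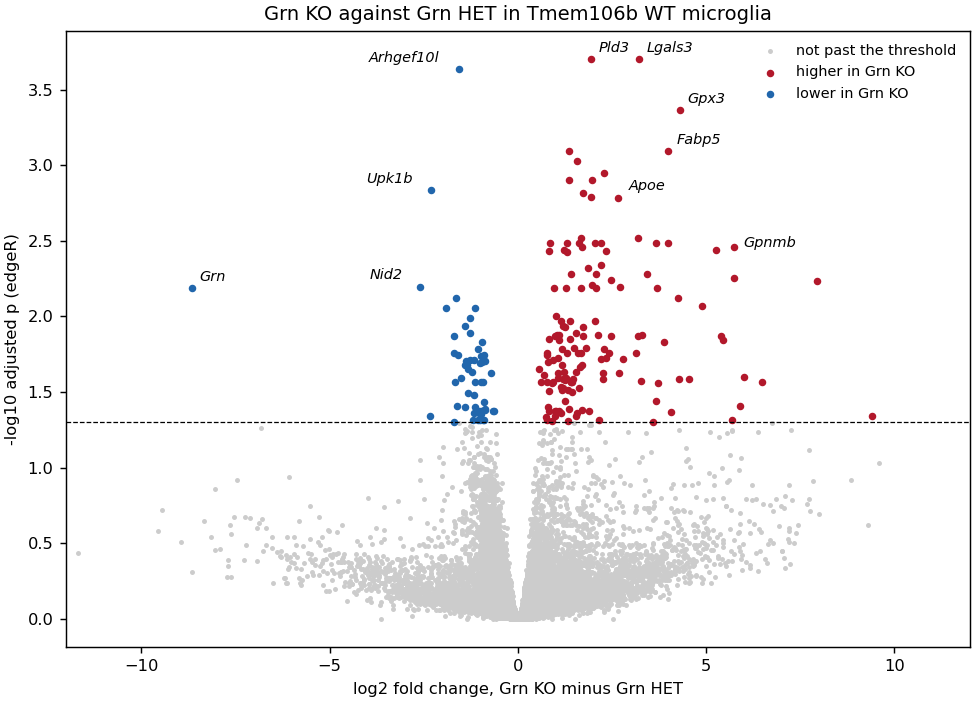
Each point is a gene, placed by its log2 fold change of Grn KO minus Grn HET (horizontal axis) and by the −log10 of its edgeR adjusted p (vertical axis); the dashed line marks an adjusted p of 0.05. The 145 genes that rose lie to the right in red, led by Pld3 and Lgals3, and the 56 that fell lie to the left in blue, led by Arhgef10l.

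Leaving out single libraries changed that count. It became 93, 277, 93 and 75 without Grn KO replicates 1, 2, 3 and 4, and 71, 227, 86, 70 and 166 without Grn HET replicates 1, 2, 3, 4 and 5. All 201 genes kept their direction in each of these 9 fits, which reuse most of the libraries that chose the genes. Of the 201, 55 genes, 47 higher and 8 lower, kept their call in all 9. The DESeq2 Wald test called 780 genes and limma-voom 382. Among Entire libraries alone (3 Grn KO against 3 Grn HET) 400 genes rose and 606 fell, with 188 of the 201 still past the threshold, and among female libraries alone 193 rose and 85 fell. The Hemi libraries, 1 Grn KO and 2 Grn HET, are too few for a value of their own. Without sex and dissection as covariates 84 genes rose and 14 fell. A fit chosen after seeing the data, with the summed neuron, oligodendrocyte and choroid plexus markers as further covariates, had 42 genes higher and 4 lower.

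The gene of smallest p was Pld3 (ENSMUSG00000003363, chromosome 7, 27532000 to 27553218), which encodes an exonuclease of the lysosome. It was at 2379, 1826, 2471 and 2779.5 CPM in Grn KO, against 625.0, 576, 615, 529 and 609 CPM in Grn HET and 610.1, 532 and 587 CPM in Grn WT. The lowest Grn KO library, replicate 2, lay far above the highest Grn HET library, while Grn HET and Grn WT libraries overlapped (log2 fold change 1.94 with SE 0.21, edgeR adjusted p = 0.000199). Lgals3 (ENSMUSG00000050335, chromosome 14, 47367751 to 47386160) encodes galectin-3, a lectin that gathers on damaged endolysosomes. It was at 815, 647, 859 and 977 CPM in Grn KO, against 70.2, 108, 92.8, 42.6 and 79.3 CPM in Grn HET and 44.1, 41.7 and 42.5 CPM in Grn WT. The groups of Grn KO and Grn HET lay far apart, and 4 of the 5 Grn HET libraries also stood above all 3 Grn WT libraries (log2 fold change 3.23 with SE 0.36, edgeR adjusted p = 0.000199). Ctsb, the lysosomal cysteine protease cathepsin B, was at 23035, 15600.0, 19465 and 23532 CPM in Grn KO, against 7058, 4858, 7232, 6256 and 5120.0 CPM in Grn HET. Its lowest Grn KO library, replicate 2, still held more than its highest Grn HET library (log2 fold change 1.62 with SE 0.25, edgeR adjusted p = 0.00329).

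The named genes also held Gga2, Dtnbp1 and Gpr137b, which rose by smaller amounts. Gga2, an adaptor that carries cargo from the Golgi towards endosomes, was at 116, 93.4, 109 and 128 CPM in Grn KO, against 46.4, 55.7, 26.4, 39.7 and 56.1 CPM in Grn HET (log2 fold change 1.30 with SE 0.21, edgeR adjusted p = 0.00329). Dtnbp1, a subunit of the BLOC-1 complex that builds lysosome-related organelles, was at 168, 131, 165 and 162 CPM in Grn KO, against 82.6, 94.7, 89.0, 77.4 and 73.6 CPM in Grn HET (log2 fold change 0.85 with SE 0.13, edgeR adjusted p = 0.00329). Gpr137b, a lysosomal membrane protein that bears on mTORC1 signalling, was at 106, 80.8, 98.5 and 98.4 CPM in Grn KO, against 44.9, 24.7, 48.2, 39.9 and 24.2 CPM in Grn HET (log2 fold change 1.35 with SE 0.19, edgeR adjusted p = 0.00125). In all 3 genes the groups did not overlap. Reads of Gpr137b may be shared with the pseudogene Gpr137b-ps, which moved alike (1.17 on the log2 scale). Gpnmb, a transmembrane glycoprotein of endolysosomes that is made in macrophages loaded with lipid, falls outside the rule for named genes and was chosen after its values were seen. Gpnmb (ENSMUSG00000029816, chromosome 6, 49036546 to 49070929) was at 13934, 8314, 9669 and 12937 CPM in Grn KO, against 365, 360.1, 44.6, 60.6 and 26.4 CPM in Grn HET and 4.14, 1.75 and 8.90 CPM in Grn WT. The 3 genotypes did not overlap in Gpnmb, and within Grn HET replicates 1 and 2 stood well above replicates 3, 4 and 5 (log2 fold change 5.75 with SE 0.92, edgeR adjusted p = 0.00349).

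**Figure D2:**
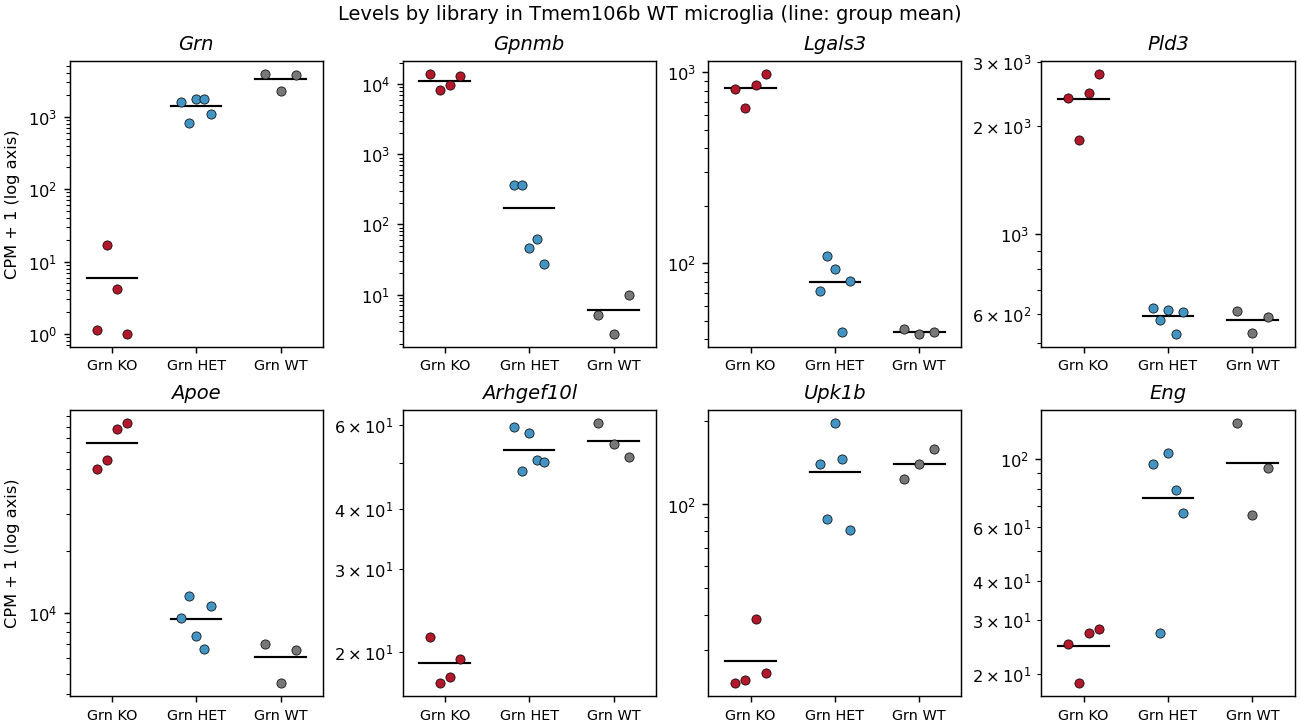
Each point is a library, with CPM + 1 on a log axis and Grn KO (n = 4), Grn HET (n = 5) and Grn WT (n = 3) libraries of Tmem106b WT mice from left to right; horizontal lines are group means. Gpnmb, Lgals3, Pld3 and Apoe are highest in Grn KO and Arhgef10l and Upk1b lowest in Grn KO without overlap, while for Eng Grn HET replicate 2 lies among the Grn KO libraries.

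Of 24 tested genes of lipid efflux and storage 6 rose and 0 fell, with a median log2 fold change of 0.69. Apoe (ENSMUSG00000002985, chromosome 7, 19696109 to 19699188), which encodes the brain's chief lipid-carrying lipoprotein component, was at 49499, 54899, 78183 and 83070.0 CPM in Grn KO, against 9353, 12044, 7654, 6680.1 and 10795 CPM in Grn HET and 7047, 4548 and 6561 CPM in Grn WT. Every Grn KO library held at least 4 times as much Apoe as any Grn HET library (log2 fold change 2.65 with SE 0.38, edgeR adjusted p = 0.00164). DESeq2 gave Apoe an adjusted p of 0.201, the only alternative of 22 in which its call was lost. Fabp5, a fatty acid-binding protein, was at 54.0, 47.2, 62.1 and 66.6 CPM in Grn KO, against 3.92, 9.03, 2.68, 2.55 and 4.68 CPM in Grn HET (log2 fold change 3.98 with SE 0.52, edgeR adjusted p = 0.000806). Nceh1, which splits stored cholesteryl ester, was at 270.2, 194, 171 and 210.4 CPM in Grn KO, against 47.4, 110.3, 34.0, 41.5 and 62.6 CPM in Grn HET (log2 fold change 1.95 with SE 0.28, edgeR adjusted p = 0.00163). Plin2, the coat protein of lipid droplets, was at 123, 98.0, 181 and 173 CPM in Grn KO, against 55.7, 44.9, 78.7, 45.0 and 41.0 CPM in Grn HET (log2 fold change 1.31 with SE 0.21, edgeR adjusted p = 0.00376). None of these overlapped between Grn KO and Grn HET. The list's other genes that passed were Soat1, which makes cholesteryl ester, and Lipa, the lysosomal acid lipase (1.25 and 0.99 on the log2 scale). The Soat1 call was lost without Grn HET replicate 4 or Grn KO replicate 2 (highest adjusted p = 0.0517), and the Lipa call in 8 of the 9 fits that leave out a library (highest adjusted p = 0.154).

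Among other enzymes, Gpx3, a secreted glutathione peroxidase, was at 1302, 1121, 1384 and 1706 CPM in Grn KO, against 92.5, 119, 46.0, 51.9 and 50.4 CPM in Grn HET and 42.2, 26.1 and 33.8 CPM in Grn WT. The gap between Grn KO and Grn HET in Gpx3 was wider than the spread within either group (log2 fold change 4.30 with SE 0.52, edgeR adjusted p = 0.000432). Gsto1, a glutathione transferase, was at 144, 113, 170.3 and 165 CPM in Grn KO, against 57.4, 35.1, 45.7, 45.4 and 50.3 CPM in Grn HET (log2 fold change 1.58 with SE 0.21, edgeR adjusted p = 0.000937). Cdo1, cysteine dioxygenase, was chosen after its values were seen and averaged 217 ± 37.3 CPM in Grn KO and 8.66 ± 7.11 CPM in Grn HET (SD, n = 4 and n = 5, as for the means given later, log2 fold change 5.27 with SE 0.85, edgeR adjusted p = 0.00362).

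Among the 20 higher named genes were 4 receptors of the cell surface, while the receptor genes Siglece and Eng, described below, were among the lower ones. Cd300lf, a lipid-binding receptor of myeloid cells, was at 86.1, 67.8, 74.5 and 104 CPM in Grn KO, against 9.19, 11.5, 6.73, 8.26 and 5.81 CPM in Grn HET (log2 fold change 3.19 with SE 0.49, edgeR adjusted p = 0.00303). Lilr4b, an inhibitory receptor, was at 55.5, 47.3, 61.0 and 58.0 CPM in Grn KO, against 11.02, 13.9, 14.2, 7.17 and 8.97 CPM in Grn HET (log2 fold change 2.21 with SE 0.35, edgeR adjusted p = 0.00329), and a close paralog may share its reads. Cxcr4, the receptor of the chemokine Cxcl12, was at 11.3, 5.55, 10.8 and 13.1 CPM in Grn KO, against 1.29, 0.223, 0.665, 0.554 and 0.920 CPM in Grn HET (log2 fold change 3.67 with SE 0.57, edgeR adjusted p = 0.00329). The lowest Grn KO library of Cxcr4, replicate 2, still held more than 4 times the highest Grn HET library. Mrgpre, a G protein-coupled receptor, averaged 59.3 ± 5.22 CPM in Grn KO and 19.5 ± 3.34 CPM in Grn HET (log2 fold change 1.69 with SE 0.26, edgeR adjusted p = 0.00303). Ms4a7, a tetraspan membrane protein that marks border macrophages, was at 438, 283, 382 and 416 CPM in Grn KO, against 50.3, 60.2, 42.5, 40.1 and 38.7 CPM in Grn HET (log2 fold change 2.70 with SE 0.47, edgeR adjusted p = 0.00636). The whole border macrophage list summed to 1143, 724, 942 and 945 CPM in Grn KO, against 1419, 817, 1049.9, 1049 and 726 CPM in Grn HET, with 9 of its 10 members below 0 on the log2 scale. The other 9 markers of those cells thus did not rise with Ms4a7, which was chosen after its values were seen.

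Rftn1, a lipid raft linker, averaged 271 ± 22.0 CPM in Grn KO and 52.7 ± 11.1 CPM in Grn HET (log2 fold change 2.30 with SE 0.31, edgeR adjusted p = 0.00112). Anxa5, which binds phosphatidylserine, averaged 657 ± 115 CPM in Grn KO and 183 ± 20.6 CPM in Grn HET (log2 fold change 1.73 with SE 0.25, edgeR adjusted p = 0.00152). Syngr1, a vesicle membrane protein, averaged 929 ± 181 CPM in Grn KO and 346 ± 22.5 CPM in Grn HET (log2 fold change 1.35 with SE 0.18, edgeR adjusted p = 0.000806). These 3 membrane proteins rose without overlap between the groups. Chst2, a sulfotransferase of glycans, averaged 228 ± 38.8 CPM in Grn KO and 59.9 ± 8.94 CPM in Grn HET (log2 fold change 1.97 with SE 0.27, edgeR adjusted p = 0.00125). Lyz2, the lysozyme of macrophages, averaged 9284 ± 1264 CPM in Grn KO and 2053 ± 539.9 CPM in Grn HET (log2 fold change 2.05 with SE 0.32, edgeR adjusted p = 0.00329), and may share reads with Lyz1. The 20 higher genes of smallest p, which are those described above apart from Gpnmb, Plin2, Soat1, Lipa, Cdo1 and Ms4a7, all kept their call in each of the 9 fits that leave out a library. Cd300lf missed the threshold with the marker sums as covariates (adjusted p = 0.0515).

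**Figure D3:**
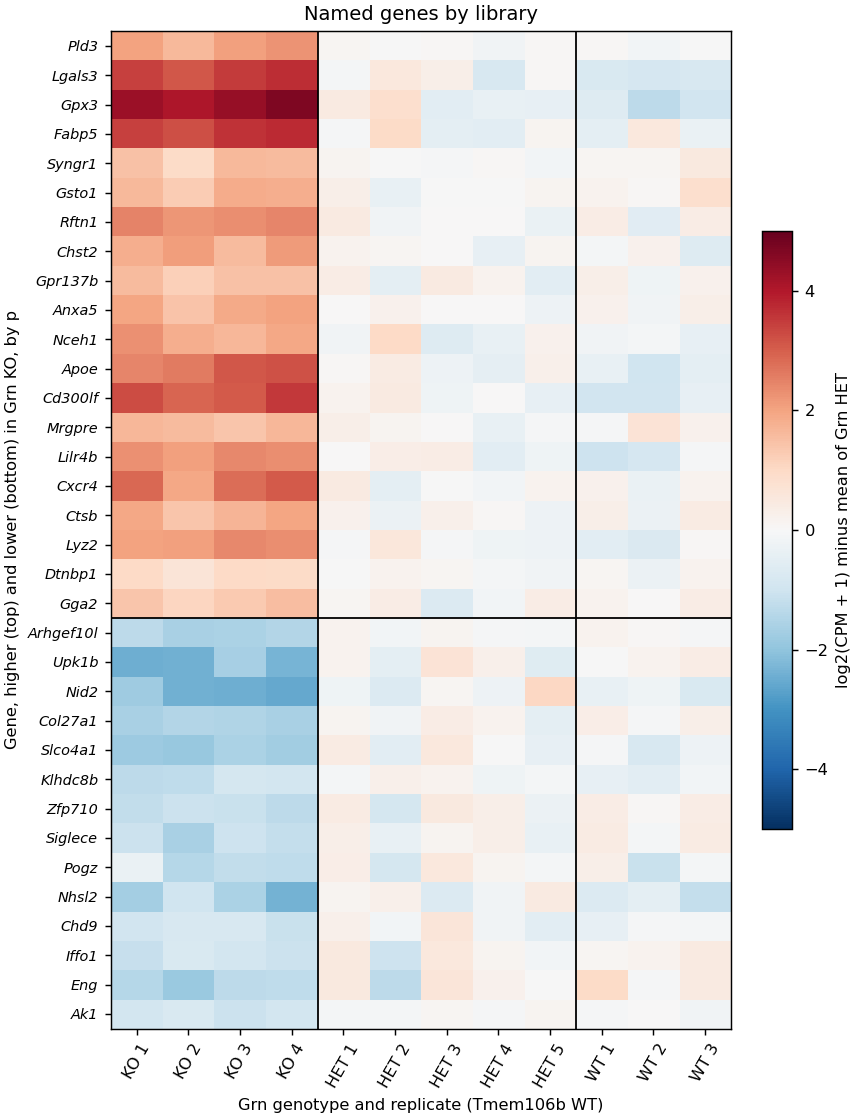
Rows are the 20 higher and 14 lower named genes by p (Grn left out) and columns are libraries of Tmem106b WT mice (Grn KO, Grn HET, Grn WT); colour is log2(CPM + 1) minus the mean of the Grn HET libraries. The 4 Grn KO columns stand apart from the Grn HET columns in every row but Pogz, Iffo1 and Eng, where the groups overlap, while Grn HET and Grn WT columns look alike in most rows.

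Among the genes that fell, Arhgef10l (ENSMUSG00000040964, chromosome 4, 140514485 to 140666012), a guanine nucleotide exchange factor, had the smallest p. It was at 20.6, 16.2, 16.8 and 18.3 CPM in Grn KO, against 58.6, 47.1, 56.8, 49.7 and 49.3 CPM in Grn HET and 59.7, 53.8 and 50.6 CPM in Grn WT. Grn HET and Grn WT libraries overlapped and all Grn KO libraries lay below them (log2 fold change -1.56 with SE 0.18, edgeR adjusted p = 0.000232). Upk1b (ENSMUSG00000049436, chromosome 16, 38773184 to 38800328), a tetraspanin, was at 21.9, 22.5, 37.8 and 23.8 CPM in Grn KO, against 138, 88.0, 195, 145 and 80.3 CPM in Grn HET and 122, 138 and 157 CPM in Grn WT (log2 fold change -2.31 with SE 0.33, edgeR adjusted p = 0.00145). Grn KO replicate 3 was the highest of its group and still lay under the lowest Grn HET library. Nid2, a basement membrane glycoprotein, was at 12.9, 7.92, 7.75 and 7.08 CPM in Grn KO, against 28.4 to 96.9 CPM, with a median of 39.2 CPM, in Grn HET (log2 fold change -2.60 with SE 0.45, edgeR adjusted p = 0.00636). Col27a1, a fibrillar collagen, averaged 20.8 ± 1.24 CPM in Grn KO and 64.3 ± 14.6 CPM in Grn HET (log2 fold change -1.65 with SE 0.29, edgeR adjusted p = 0.00752). Slco4a1, an organic anion transporter, averaged 19.4 ± 2.06 CPM in Grn KO and 70.4 ± 23.2 CPM in Grn HET (log2 fold change -1.91 with SE 0.34, edgeR adjusted p = 0.00885). These 5 genes, with Klhdc8b (-1.13), Zfp710 (-1.27) and Grn, are the 8 lower genes whose call held without any 1 library.

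The other lower genes lost their call in at least 1 of those fits. Siglece, an inhibitory receptor for sialic acid, was at 37.2, 25.04, 38.4 and 34.2 CPM in Grn KO, against 99.3, 62.1, 88.1, 97.8 and 61.8 CPM in Grn HET (log2 fold change -1.40 with SE 0.26, edgeR adjusted p = 0.0115), and missed the threshold without Grn KO replicate 4 (adjusted p = 0.0504). Eng, which encodes endoglin, a TGF-beta co-receptor of the cell surface, was at 24.0, 17.7, 26.1 and 26.9 CPM in Grn KO, against 94.9, 26.2, 103, 78.2 and 65.4 CPM in Grn HET (log2 fold change -1.70 with SE 0.34, edgeR adjusted p = 0.0173). Grn HET replicate 2 lay within the Grn KO range of Eng, and the call was lost without Grn KO replicate 1, 3 or 4 (highest adjusted p = 0.0779). Pogz, a chromatin protein, was at 24.0, 10.8, 12.5 and 12.3 CPM in Grn KO, against 39.4, 16.4, 44.6, 33.8 and 28.7 CPM in Grn HET (log2 fold change -1.26 with SE 0.24, edgeR adjusted p = 0.0128). Grn KO replicate 1 lay above Grn HET replicate 2 in Pogz, and the call was lost without Grn KO replicate 3 or 4 (highest adjusted p = 0.0652). Nhsl2 (-1.69), the chromatin remodeller gene Chd9 (-0.96), Iffo1 (-1.06) and Ak1, an adenylate kinase (-0.91), fell as well, with adjusted p from 0.0134 to 0.0179. Iffo1 overlapped between the groups in Grn HET replicate 2. Without a library their highest adjusted p was 0.0688, 0.0657 and 0.0800 for the first 3 (Grn KO replicates 4, 4 and 1) and 0.0734 for Ak1 (Grn KO replicate 1).

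Gene lists were read by their counts and medians beside the 0.678% of all genes that rose, the 0.262% that fell and the median of 0.03 over all genes. The lists were chosen with earlier results of these data known. Of 31 genes of disease-associated microglia, the state that microglia take on around amyloid and dying cells, 16 rose and 0 fell, with a median log2 fold change of 1.34. Besides Apoe, Lgals3, Fabp5, Ctsb, Lyz2 and Gpnmb they were the cystatin gene Cst7 (2.29), the secreted phosphoprotein gene Spp1 (2.14), the lectin receptor gene Clec7a (2.35), the growth factor gene Igf1 (3.19), the heparanase gene Hpse (4.54), Timp2 (0.95), Cd63 (1.74), Cd68 (1.55), the ferritin gene Fth1 (1.68) and Ctsd (1.41). Of these last 10, Timp2 alone kept its call in all 9 fits that leave out a library. The other 9 lost it in 2 to 7 of them, with a highest adjusted p of 0.0718 for Cst7, 0.0559 for Spp1, 0.0773 for Clec7a, 0.0571 for Igf1, 0.101 for Hpse and 0.0517 for Cd63, each without Grn HET replicate 1. It was 0.0578 for Fth1 without the same library, and 0.0829 for Cd68 and 0.0928 for Ctsd without Grn HET replicate 3. The 31 genes summed to 152340.0, 147110.0, 172370.0 and 185450.0 CPM of the plain library total in Grn KO, against 48368, 47270.0, 47821, 45104 and 44317 CPM in Grn HET.

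Of 22 homeostatic microglia genes 0 rose and 3 fell, with a median of -0.73, and 20 of the 22 had values below 0, where 52.1% of all genes tested lay above 0. The 3 were Upk1b, the crystallin gene Crybb1 (-1.39, adjusted p = 0.0198) and the fructose transporter gene Slc2a5 (-1.42, adjusted p = 0.0397). Slc2a5 was at 345, 233, 423 and 343 CPM in Grn KO, against 1015, 628, 961, 980.1 and 545 CPM in Grn HET. Its call was lost in all 9 fits that leave out a library (highest adjusted p = 0.151, without Grn KO replicate 4) and that of Crybb1 in 3 of them (0.0823, without Grn KO replicate 1). Tmem119, the surface protein that marks microglia, was at 2490.2, 1700.2, 2987 and 2633 CPM in Grn KO, against 6691, 2869, 6195, 6042 and 3859 CPM in Grn HET, and did not pass (log2 fold change -1.16 with SE 0.31, edgeR adjusted p = 0.0849). Grn HET replicate 2, one of the 2 Hemi libraries of that group, overlapped the Grn KO range of Tmem119. Among Entire libraries alone 12 of the 22 homeostatic genes passed.

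Lysosomal genes moved in part. Of 39 lysosomal hydrolases 5 rose and 0 fell (median 0.37), namely Pld3, Ctsb, Ctsd, Lipa and Gla. Ctsd, the aspartic protease cathepsin D, was at 37460.0, 28886, 39154 and 44820.0 CPM in Grn KO, against 15212, 9669, 15492, 14062 and 10336 CPM in Grn HET (log2 fold change 1.41 with SE 0.31, edgeR adjusted p = 0.0272). Gla, the alpha-galactosidase that clears globosides, was at 72.1, 54.5, 68.7 and 78.3 CPM in Grn KO, against 9.44, 11.3, 9.93, 6.52 and 13.5 CPM in Grn HET (log2 fold change 2.70 with SE 0.57, edgeR adjusted p = 0.0238). Neither gene overlapped between the groups. The Ctsd call was lost in 7 of the 9 fits that leave out a library (highest adjusted p = 0.0928, without Grn HET replicate 3) and the Gla call in 6 (0.0829, without Grn HET replicate 4). Of 26 lysosomal membrane and transport proteins 3 rose and 0 fell (median 0.34). Mcoln3, an endolysosomal cation channel, was at 202, 153, 116 and 166 CPM in Grn KO, against 2.47, 3.31, 2.14, 4.53 and 2.82 CPM in Grn HET and no count in the 3 Grn WT libraries (log2 fold change 5.44 with SE 1.03, edgeR adjusted p = 0.0144). All 5 Grn HET libraries thus held Mcoln3 reads that no Grn WT library held, and the call was lost without Grn KO replicate 2 (0.135) and without Grn HET replicate 1, 3 or 4. The tetraspanin gene Cd63 rose by a log2 fold change of 1.74 and may share reads with its pseudogene Cd63-ps, and the macrophage sialoprotein gene Cd68 rose by 1.55.

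Of 18 vacuolar ATPase subunits, parts of the pump that brings protons into lysosomes, 3 rose and 0 fell (median 0.49). Atp6v1a was at 456, 277, 337 and 388 CPM in Grn KO, against 125, 250.3, 116, 154 and 244 CPM in Grn HET (log2 fold change 1.23 with SE 0.26, edgeR adjusted p = 0.0235). Atp6v1c1 (0.81) and Atp6v1g1 (0.83) also passed, and 17 of the 18 subunits had values above 0, where 52.1% of all genes tested did. Without a library the highest adjusted p was 0.133 for Atp6v1a and 0.0737 for Atp6v1c1 (Grn KO replicate 4) and 0.111 for Atp6v1g1 (Grn KO replicate 3). Of 26 genes of the TFEB family, Rag GTPases and autophagy 5 rose and 0 fell (median 0.23). They were the GTPase gene Rragd, at 87.3, 65.5, 64.1 and 67.5 CPM in Grn KO, against 8.07, 34.5, 1.57, 13.9 and 28.1 CPM in Grn HET (log2 fold change 2.80 with SE 0.57, edgeR adjusted p = 0.0191), the autophagy receptor genes Sqstm1 (0.77) and Optn (1.43), and the autophagosome membrane genes Map1lc3b (0.56) and Gabarap (0.69). Each of the 5 lost its call in 4 to 7 of the fits that leave out a library. The highest adjusted p was 0.109, 0.101 and 0.0799 for Sqstm1, Map1lc3b and Gabarap (without Grn KO replicate 4), 0.0711 for Rragd (without Grn KO replicate 1) and 0.114 for Optn (without Grn HET replicate 1). Grn HET replicate 2, a Hemi library, held the highest Atp6v1a and Rragd of its group and also the most neuron markers.

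The promoters of the higher genes were searched for the extended CLEAR core TCACGTGA, its central E-box CACGTG and the M-box core TCATGTG of MITF targets, on both strands of the RefSeq promoter window from 250 bases before to 50 bases after each start. Of the 145 higher genes 122 matched a window by symbol, and of the 56 lower genes 44. TCACGTGA stood in 5 of the 122 higher genes (4.1%) and in 0 of the 44 lower genes, where 1.85% of the 13484 tested genes with a window held it. CACGTG, which is part of TCACGTGA, stood in 17 (13.9%) and 4 (9.09%), where 10.7% of tested genes held it. TCATGTG stood in 12 (9.84%) and 4 (9.09%), where 2.96% of tested genes held it. A match is a description of the letters and not a bound site, and no match says only that these letters are not in the window. The 5 genes with TCACGTGA are shown as the 250 bases before their start, all on the minus strand of their chromosome (GRCm38.p6, RefSeq), 5′ to 3′, with TCACGTGA and TCATGTG of either strand in capitals.
Gla, chrX:134601006-134601255: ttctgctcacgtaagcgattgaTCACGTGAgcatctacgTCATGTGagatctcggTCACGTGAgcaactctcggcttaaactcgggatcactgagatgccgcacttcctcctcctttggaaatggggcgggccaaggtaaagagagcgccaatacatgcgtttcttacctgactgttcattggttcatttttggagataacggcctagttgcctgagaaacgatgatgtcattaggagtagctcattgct
Ctsd, chr7:142387828-142388077: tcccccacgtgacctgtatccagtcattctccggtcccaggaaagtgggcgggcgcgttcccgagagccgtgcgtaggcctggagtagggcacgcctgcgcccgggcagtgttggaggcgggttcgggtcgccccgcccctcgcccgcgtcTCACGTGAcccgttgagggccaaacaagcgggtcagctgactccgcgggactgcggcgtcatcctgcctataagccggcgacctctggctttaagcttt
Dpp7, chr2:25356333-25356582: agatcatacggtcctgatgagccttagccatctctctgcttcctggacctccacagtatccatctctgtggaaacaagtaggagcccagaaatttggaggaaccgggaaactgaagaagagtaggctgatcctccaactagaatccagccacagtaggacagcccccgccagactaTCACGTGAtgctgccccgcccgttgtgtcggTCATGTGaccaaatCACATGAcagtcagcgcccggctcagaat
Atp6v1a, chr16:44139260-44139509: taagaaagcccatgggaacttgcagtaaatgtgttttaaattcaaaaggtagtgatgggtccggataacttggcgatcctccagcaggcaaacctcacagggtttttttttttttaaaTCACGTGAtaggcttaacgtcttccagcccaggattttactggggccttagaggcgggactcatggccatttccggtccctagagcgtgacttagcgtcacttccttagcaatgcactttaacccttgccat
Amdhd2, chr17:24163734-24163983: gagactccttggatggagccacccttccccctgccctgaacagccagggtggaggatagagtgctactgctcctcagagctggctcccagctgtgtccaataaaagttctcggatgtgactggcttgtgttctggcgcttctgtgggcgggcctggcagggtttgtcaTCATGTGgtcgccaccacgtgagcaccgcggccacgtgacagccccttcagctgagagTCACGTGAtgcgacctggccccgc

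In Gla the TCACGTGA matches begin 228 and 195 bases before the start, with a TCATGTG between them. The match begins 132 bases before the start in Atp6v1a, 99 in Ctsd, 74 in Dpp7 and 24 in Amdhd2. Dpp7, a lysosomal dipeptidyl peptidase, and Amdhd2, an enzyme of amino sugar catabolism, were chosen for this match. They rose by log2 fold changes of 1.38 (adjusted p = 0.0108) and 1.03 (adjusted p = 0.0132). Dpp7 was lost without Grn HET replicate 1 (adjusted p = 0.0510) or 4, and Amdhd2 without Grn KO replicate 4 (0.0593) or Grn HET replicate 3 or 4.

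Of 21 glycolysis genes 4 rose and 0 fell (median 0.65). They were Pkm, the pyruvate kinase, at 388, 304, 382 and 437 CPM in Grn KO, against 174, 256, 143, 172 and 268 CPM in Grn HET (log2 fold change 1.01 with SE 0.18, edgeR adjusted p = 0.0100), with Tpi1 (1.16), Ldha (0.76) and Eno1 (0.62). Their highest adjusted p without a library was 0.0687, 0.0987 and 0.180 for Pkm, Tpi1 and Eno1 (Grn KO replicate 4) and 0.137 for Ldha (Grn KO replicate 3). In a fit of the 2 groups alone no glycolysis gene passed, and 1 did without covariates, 0 with the marker sums as covariates and 8 among Entire libraries. Grn HET replicates 2 and 5 held the most Pkm and Tpi1 of their group. They are its 2 Hemi libraries and hold its most neuron markers, and replicate 5 its most choroid plexus markers. Of 24 cytokines, chemokines and NF-kB targets 1 rose, Ptgs2, the inducible cyclooxygenase, at 29.3, 36.2, 79.4 and 98.0 CPM in Grn KO, against 5.75, 0.631, 2.72, 4.19 and 1.96 CPM in Grn HET (log2 fold change 4.28 with SE 0.92, edgeR adjusted p = 0.0260). Ptgs2 was lost in 7 of the 9 fits that leave out a library (highest adjusted p = 0.0899, without Grn HET replicate 3). Of 24 immediate early and dissociation genes 1 rose, the nuclear receptor gene Nr4a2, at 54.6, 54.0, 69.6 and 49.9 CPM in Grn KO, against 8.55, 8.04, 1.93, 6.77 and 3.21 CPM in Grn HET (log2 fold change 3.44 with SE 0.58, edgeR adjusted p = 0.00524). That call held in all 9 fits. Of 22 genes of the TGF-beta pathway 1 fell, Eng (median -0.42), and none passed without covariates.

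The list counts moved with the fit. With the marker sums as covariates 7 disease-associated, 4 lipid, 2 hydrolase, 1 lysosomal membrane and 1 homeostatic gene passed, beside 0 in the vacuolar ATPase, autophagy, cytokine and TGF-beta lists. Among female libraries alone 20 disease-associated genes passed, beside 0 vacuolar ATPase subunits and 1 autophagy gene. In the fit of the 2 groups 27 disease-associated, 14 hydrolase and 10 homeostatic genes passed.

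No member passed in 6 lists. Their median log2 fold changes were 0.47 for 23 genes of cholesterol synthesis, 0.31 for 26 of oxidative phosphorylation, 0.38 for 24 of the cell cycle, 0.08 for 17 of complement, -0.03 for 27 of the type I interferon response and -0.09 for 19 of antigen presentation. At an unadjusted p under 0.05, 6 cholesterol genes, 4 oxidative phosphorylation genes, 1 complement gene and 2 antigen presentation genes were higher, and 1 complement gene was lower. No gene of the interferon or cell cycle lists reached that. Values above 0 were seen in 22 of the cholesterol, 25 of the oxidative phosphorylation and 21 of the cell cycle genes. They were seen in 9 of the complement, 13 of the interferon and 8 of the antigen presentation genes, where 52.1% of all genes tested had them. DESeq2 called 2 cholesterol genes and 1 antigen presentation gene and none in the other 4 lists, and limma-voom called none in the 6. Among Entire libraries 7 oxidative phosphorylation, 3 complement, 2 cholesterol and 2 antigen presentation genes passed, and in a fit of Tmem106b WT libraries 4 antigen presentation, 2 complement and 2 cholesterol genes. The interferon and cell cycle lists gave 0 in these fits too.

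**Figure D4:**
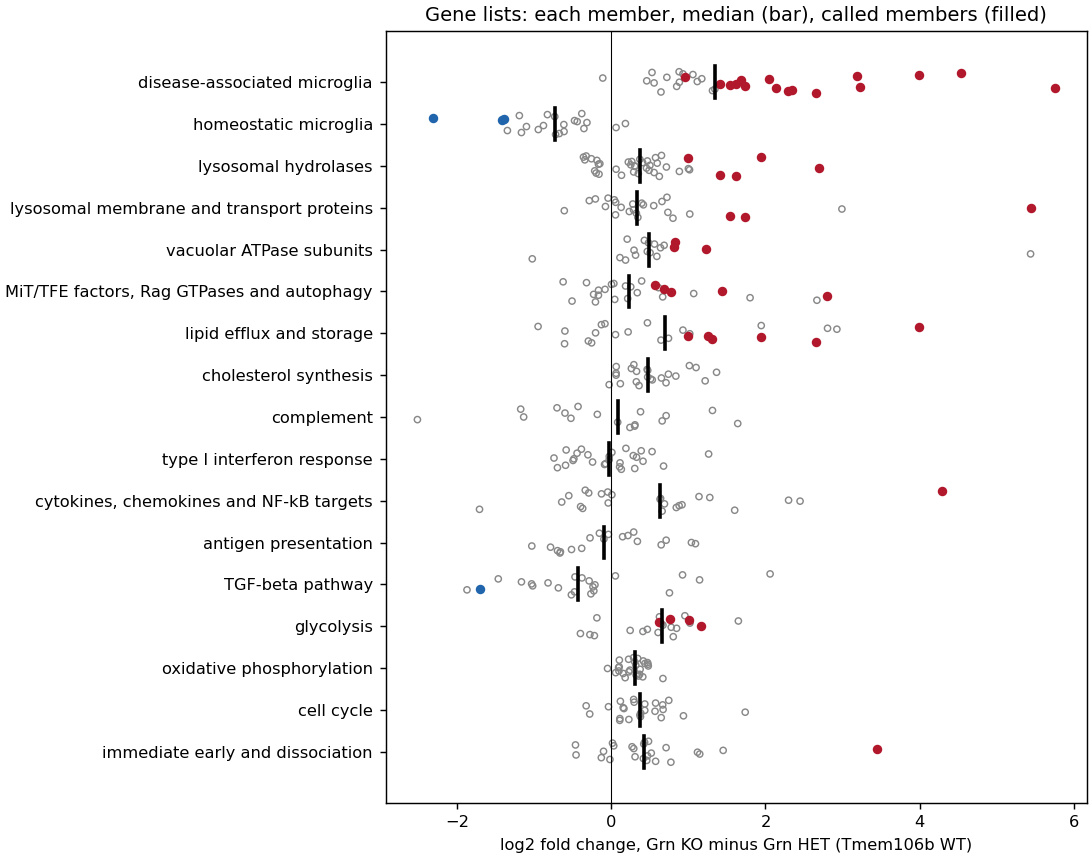
Each point is a gene of the list named on the vertical axis, at its log2 fold change of Grn KO minus Grn HET in Tmem106b WT microglia; filled points passed (red higher, blue lower) and black bars are medians. Disease-associated genes have the most filled points (16 of 31) and homeostatic genes lie mostly below 0.

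Transcripts known from neurons of the medial habenula, a small cholinergic nucleus, were also higher. Of 12 genes on that marker list 4 rose and 0 fell (median 4.41), and the list summed to 547, 583, 519.9 and 475 CPM in Grn KO, against 70.4, 458, 38.4, 48.6 and 104 CPM in Grn HET and 5.53, 136 and 19.1 CPM in Grn WT. Of the Grn HET libraries, replicate 2 alone came near the Grn KO range. The 4 were the nicotinic receptor gene Chrna3 (5.74, adjusted p = 0.00560), the calcium-binding protein gene Necab2 (3.15, 0.0173), the neurokinin gene Tac2 (6.01, 0.0252) and the choline transporter gene Slc5a7 (6.48, 0.0269). Chrna3 was at 79.6, 81.3, 88.6 and 71.2 CPM in Grn KO, against 2.05, 1.84, 2.57, 0.746 and 0.783 CPM in Grn HET, and Necab2 at 104, 121, 104 and 112 CPM in Grn KO, against 17.5, 40.6, 5.81, 11.1 and 15.9 CPM in Grn HET. Neither overlapped, and the 4 Grn KO libraries, Hemi or Entire, were close to each other. Without a library the highest adjusted p was 0.0657 for Necab2 and 0.0840 for Tac2 (Grn HET replicate 3) and 0.0737 for Slc5a7 (Grn KO replicate 4), while Chrna3 kept its call in all 9 fits. Other genes of cholinergic or other neurons that passed, chosen after their values were seen, were the vesicular acetylcholine transporter gene Slc18a3 (7.96), the synaptic vesicle protein gene Synpr (4.90) and Necab3 (4.27).

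The sums of the 12 general neuron markers did not follow the same order. General neuron markers summed to 904, 576, 517 and 813 CPM in Grn KO, against 233, 2934, 90.8, 482 and 1214 CPM in Grn HET, and none passed in edgeR (median 1.19, with 2 higher at an unadjusted p under 0.05, 2 called by DESeq2 and 1 by limma-voom). All 12 had log2 fold changes above 0 in the edgeR fit, as did all 12 habenula markers, where 52.1% of all genes tested did. Among Entire libraries Grn KO held 517 to 904 CPM and Grn HET 90.8 to 482 CPM, and among Hemi libraries Grn KO held 576 CPM and Grn HET 1214 and 2934 CPM. The part of these transcripts in the results on microglia genes was not tested beyond the fit with marker sums as covariates. Of the other marker lists, Ms4a7 passed among border macrophages and Cd22, an inhibitory receptor also made by microglia, among B cells (1.54, adjusted p = 0.0129). The Cd22 call was lost without Grn HET replicate 1 (0.0515) or 4 or Grn KO replicate 2. The B cell list summed to 691, 539, 706 and 610.4 CPM in Grn KO, against 914, 556, 836, 1339 and 736 CPM in Grn HET. In edgeR no member passed among monocytes, neutrophils, T and NK cells, erythrocytes, astrocytes, oligodendrocytes or their precursors, mural cells, endothelial cells, or cells of the choroid plexus and ependyma, where 6 members in all were higher and 4 lower at an unadjusted p under 0.05. Values above 0 were seen in 12 of 13 T and NK cell, 9 of 10 endothelial and 7 of 7 erythrocyte markers. All 10 oligodendrocyte and all 10 precursor markers had them, where 52.1% of all genes tested did. Such values were seen in 7 of 9 monocyte, 3 of 6 neutrophil, 7 of 10 astrocyte, 7 of 10 mural and 3 of 10 choroid plexus and ependymal markers. Among those lists DESeq2 called 2 monocyte genes and 1 choroid plexus gene, and limma-voom 1 neutrophil gene. Endothelial markers summed to 129, 80.0, 125 and 125 CPM in Grn KO, against 58.3, 24.4, 67.0, 87.5 and 81.3 CPM in Grn HET. Those ranges overlapped over all libraries but not among Entire libraries.

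The 2 steps of Grn loss were then set side by side. For Grn HET against Grn WT 0 genes passed in edgeR, with 734 at an unadjusted p under 0.05, 307 by DESeq2 (292 higher, 15 lower) and 0 by limma-voom. Choroid plexus and ependymal markers were higher in every Grn HET library than in every Grn WT library, at 81.6, 4158, 379.8, 4642 and 27547 CPM in Grn HET, against 18.9, 29.0 and 11.3 CPM in Grn WT, and their part was not tested in this step. This step shares the Grn HET libraries with the comparison above. The 145 genes higher in Grn KO had a median log2 fold change of 1.62 for Grn KO minus Grn HET and 0.09 for Grn HET minus Grn WT. The 56 lower genes had medians of -1.16 and -0.02. Over all genes tested the medians were 0.03 and 0.06. Both sets were chosen on Grn KO against Grn HET, and the Grn HET libraries enter the 2 steps with opposite sign. A larger value for Grn KO minus Grn HET was thus fixed in part by the choice, and these medians are a description. For Pld3 the 2 steps were 1.94 and -0.01, for Ctsb 1.62 and -0.10, for Gsto1 1.58 and -0.31 and for Arhgef10l -1.56 and 0.02. In these 4 genes the Grn HET and Grn WT libraries overlapped. Other genes had values above 0 for Grn HET minus Grn WT, without passing. For Gpnmb the steps were 5.75 and 5.27 (SE 1.19 for the second value), for Lgals3 3.23 and 0.85, for Gpx3 4.30 and 0.83 and for Apoe 2.65 and 0.67.

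A contrast of the 2 steps, (Grn KO minus Grn HET) minus (Grn HET minus Grn WT), tested directly whether the second loss moved a gene by another amount than the first. No gene of 21371 passed in edgeR, with 1184 at an unadjusted p under 0.05, 234 by DESeq2 and 0 by limma-voom. The 5 genes of smallest p that the rule for named genes takes were Pld3 (1.95, SE 0.38, adjusted p = 0.399), Arhgef10l (-1.58, SE 0.31, 0.399), Gsto1 (1.89, SE 0.38, 0.399), Syngr1 (1.59, SE 0.32, 0.399) and Pogz (-1.91, SE 0.42, 0.463). In each of these 5 the fitted second step was the larger in size. At an unadjusted p under 0.05 the difference of steps stood in 115 of the 145 higher and 49 of the 56 lower genes, but these genes were chosen on Grn KO against Grn HET, which enters the contrast, so that count is a description.

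The same contrast was taken in Tmem106b HET mice, with 3 Grn KO and 3 Grn HET libraries. These libraries do not enter the Grn KO and Grn HET means of Tmem106b WT mice that chose the genes, but they share the fit's filter, dispersions and covariates. There 805 genes rose and 593 fell, 6.54% of the genes tested. That count of 1398 was 155 and 628 without Grn KO replicates 2 and 3, 160 and 374 without Grn HET replicates 2 and 3, and 280 without covariates. With the marker sums as covariates, chosen after seeing the data, it was 0 in edgeR, with 1861 genes at an unadjusted p under 0.05. Neuron transcripts were higher in every Grn KO library than in every Grn HET library there. General neuron markers summed to 571, 2302 and 7365 CPM in Grn KO, against 56.5, 202 and 103 CPM in Grn HET, and medial habenula markers to 421, 1903 and 1462 CPM in Grn KO, against 4.74, 12.01 and 9.002 CPM in Grn HET. The 10 microglia markers summed to 32076, 21778 and 8949 CPM in Grn KO, against 54181, 48540.0 and 48074 CPM in Grn HET, without overlap and lowest in Grn KO replicate 3, and 7 of the 10 fell. The part of other cells in the count was not tested beyond the fit with marker sums, and that of the lower microglia markers was not tested.

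All 145 genes higher in Tmem106b WT mice had values above 0 in Tmem106b HET mice, where 52.7% of all genes tested did, and 85 of them (58.6%) passed, where 3.77% of all genes rose. All 56 lower genes, Grn included, had values below 0 there, where 47.3% of all genes tested did. Of them 37 (66.1%) passed, where 2.77% of all genes fell and the microglia markers were lower too. Without Grn, the targeted gene, 36 of 55 (65.5%) passed. No higher or lower gene passed in the opposite direction. Median log2 fold changes there were 1.26 for the higher and -1.41 for the lower genes, beside 1.62 and -1.16 in Tmem106b WT mice.

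Lgals3 was at 1008, 600.4 and 257 CPM in Grn KO, against 40.6, 31.1 and 50.4 CPM in Grn HET of Tmem106b HET mice (3.84, adjusted p = 0.00203). Pld3 was at 2961, 1832 and 946 CPM in Grn KO, against 609, 534 and 609 CPM in Grn HET (1.68, 0.00596). Apoe was at 81110.0, 42354 and 16180.0 CPM in Grn KO, against 8062, 5835 and 9980.4 CPM in Grn HET (2.49, 0.0100). These 3 genes of lysosomes and lipid transport rose in both Tmem106b backgrounds, but the lysosomal lists did not all move alike. In Tmem106b HET mice the median was -0.10 for lysosomal hydrolases (3 rose) and -0.04 for lysosomal membrane and transport proteins (2 rose). It was 0.74 for vacuolar ATPase subunits (9 rose, 1 fell) and 0.71 for lipid efflux and storage (4 rose), beside 0.07 over all genes tested there. Upk1b was at 16.4, 16.8 and 16.1 CPM in Grn KO, against 155, 159 and 165 CPM in Grn HET (-3.15, 0.00216). Of the 35 named genes by p, 28 passed there, the targeted Grn included, and 7 did not, namely Arhgef10l (-0.59, 0.108), Mrgpre (0.60, 0.260), Gga2 (0.65, 0.130), Klhdc8b (-0.48, 0.246), Pogz (-0.66, 0.176), Nhsl2 (-0.62, 0.352) and Ak1 (-0.31, 0.427).

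The difference between the 2 backgrounds was tested as an interaction, and 0 of 21371 genes passed in edgeR (1531 at an unadjusted p under 0.05, 360 by DESeq2, 0 by limma-voom). For Arhgef10l the interaction was -0.97 (adjusted p = 0.680), for Mrgpre 1.09 (0.680) and for Nhsl2 -1.07 (0.680). The 5 named genes of smallest interaction p were Lrrn2, Arhgef17, Fam189a1, Spint2 and Zfp423, at -4.75, -4.61, -6.65, -5.65 and -3.53 (adjusted p from 0.499 to 0.680). Their log2 fold changes of Grn KO minus Grn HET lay between -1.44 and 0.28 in Tmem106b WT mice and between 2.30 and 6.08 in Tmem106b HET mice. Of the 9 libraries of the Tmem106b WT comparison, Grn HET replicates 2 and 5 held the most of each. These are the 2 Hemi libraries of Grn HET, replicate 2 with the most neuron markers (2934 CPM) and replicate 5 with the most choroid plexus and ependymal markers (27547 CPM), and the part of either in these genes was not tested.

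**Figure D5:**
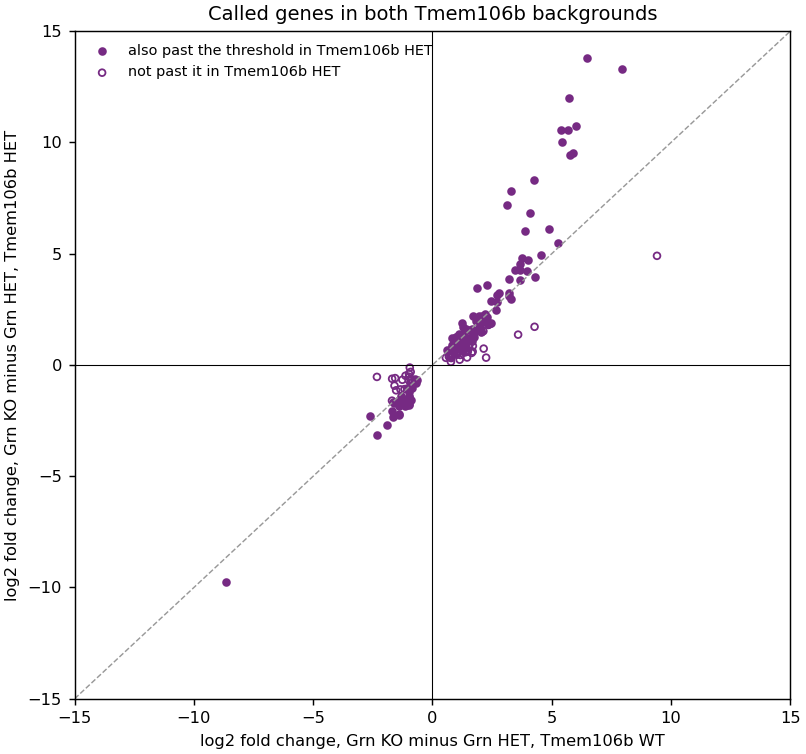
Each point is a gene that passed in Tmem106b WT mice, at its log2 fold change of Grn KO minus Grn HET there (horizontal axis) and in Tmem106b HET mice (vertical axis); filled points also passed in Tmem106b HET mice and the dashed line marks equal values. All 201 points lie in the upper right or lower left part of the plot, and the points far above the line include Chrna3, which is near 0 in Grn HET libraries of Tmem106b HET mice.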

How the data were processed

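Poly(A) RNA of mouse microglia was prepared with RNeasy Plus Micro, amplified with SMART-Seq v4 and made into libraries with Nextera XT, per the labels' protocols. Reads were aligned with GSNAP to GRCm38, per the submitters' processing notes, and the authors deposited whole-number read counts of exons per gene beside RPKM values, which were not used. Each of the 26 libraries held 37562732 to 63710833 counts. Genes without an entry in GENCODE M21 held at most 0.0104% of a library. Groups were taken from the genotype labels.

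Counts were tested with edgeR 4.0.16 in R 4.3.3 (TMM, filterByExpr, robust quasi-likelihood F-test, all 26 libraries, sex and dissection as covariates, Benjamini-Hochberg over 21371 genes, adjusted p under 0.05), after the scripts were tested on simulated data. DESeq2 1.42.0, limma-voom 3.58.1, other filters, covariates and library subsets were alternatives. Levels per gene are TMM-scaled CPM, while marker and list sums are CPM of the plain library total. The SE beside an edgeR log2 fold change is the size of that change divided by the square root of the F statistic. It is thus not an error estimated apart from the test.

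Named genes were Grn and Tmem106b, the 20 higher and 15 lower genes of smallest p with a log2 fold change of at least 0.5 in size and, in the higher group, a mean of 5 CPM or more (no predicted or Y-linked genes, no Xist), up to 4 genes per list by p, 5 genes per difference test and up to 3 per marker list by CPM. In addition, Gpnmb, Cdo1, Slc18a3, Synpr, Necab3, Dpp7, Amdhd2 and the further genes named within lists were chosen after their values were seen. The groups, lists and rule were chosen with earlier results of these data known. Counting error is small at these depths for genes well above 0 CPM, where the spread between libraries sets the precision. It is larger for genes near 0 CPM in a group, such as Grn in Grn KO, Cxcr4 in Grn HET and Mcoln3 in Grn WT libraries. Use of strand in counting is not given in the sources used here.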

Additional observations from a re-analysis of the deposited data

Results flagged for a closer look

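Of 257 groups of 4 or 5 libraries examined for a library far from the rest by Dixon's criterion, 17 were picked out, and chance picks out about 1 in 20. In Grn KO, replicate 3 held 37.8 CPM of Upk1b, beside 21.9 to 23.8 CPM in the others. Grn KO replicate 1 held 12.9 CPM of Nid2 (7.08 to 7.92 CPM in the others), 24.0 CPM of Pogz (10.8 to 12.5 CPM) and 87.3 CPM of Rragd (64.1 to 67.5 CPM). Grn KO replicate 2, the Hemi library of its group, held 486 CPM of the phosphatidylserine-binding Anxa5 (688 to 729 CPM in the others) and 18.6 CPM of Ltbp3 (8.54 to 10.1 CPM). The same library held 10843 CPM of oligodendrocyte markers (1792 to 2078 CPM), 916 CPM of oligodendrocyte precursor markers (108 to 133 CPM), 80.0 CPM of endothelial markers (125 to 129 CPM) and 558 CPM of the type I interferon list (697 to 709 CPM). In Grn HET, replicate 2 held 2997 CPM of Lyz2 (1696 to 1940.0 CPM in the others), 420 CPM of Atp6v1c1 (285 to 318 CPM), 3772 CPM of the list of TFEB family, Rag GTPase and autophagy genes (2877 to 3090 CPM), 182 CPM of the cell cycle list (285 to 316 CPM) and 458 CPM of medial habenula markers (38.4 to 104 CPM). Grn HET replicate 5 held 324 CPM of Spint2 (4.36 to 65.8 CPM in the others) and 27547 CPM of choroid plexus and ependymal markers (81.6 to 4642 CPM). Their part in the comparison was not tested beyond leaving each library out.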

How the results depend on the processing

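All 201 genes called between Grn KO and Grn HET kept their direction in every alternative in which they were tested. The alternatives reuse all or part of the libraries on which these genes were chosen, so the kept direction is a description. The count of 201 stayed within 1.5 times under DESeq2 size factors, no filter, a minimum of 1 CPM in 4 libraries, dissection as the only covariate and female libraries only. It was 780 with the DESeq2 Wald test, 382 with limma-voom, 98 with no covariates, 97 with sex alone, 423 in a fit of the 2 groups, 640 in a fit of Tmem106b WT libraries and 1006 (39.8% higher, against 72.1% in the fit of all libraries) among Entire libraries. With marker sums as covariates, chosen after seeing the data, it was 46. It ranged from 70 to 277 when a library was left out. The difference of steps, the interaction and Grn HET against Grn WT gave 0 genes except by DESeq2 (234, 360 and 307). The count in Tmem106b HET mice (1398) was 3641 with DESeq2, 280 with no covariates and 0 with marker sums, and ranged from 155 to 1273 without a library. Of the gene list members 41 were called, against 78 with DESeq2, 26 with no covariates, 24 with sex alone, 76 in the 2 groups, 94 in Tmem106b WT libraries, 106 among Entire libraries, 13 with marker sums, and 14 to 43 without a library. The mean log2(CPM + 1) of Grn KO minus Grn HET ranged from -9.65 to -8.29 for Grn and from -0.0758 to 0.172 for Tmem106b without a library. On the CPM scale these differences were -1409 and 4.65. The cause of these changes was not tested. No paired analysis was possible because GEO's labels carry no replicate numbers, and those used here were given in sample order. Depth limits genes near 0 CPM, such as Slc18a3 in Grn HET libraries.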

Other observations

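Of the 201 genes that passed between Grn KO and Grn HET, 154 belonged to no list, and those given here were chosen after their values were seen, among the 55 that kept their call without any single library. Vim, which encodes the intermediate filament protein vimentin, was at 152, 147, 157 and 182 CPM in Grn KO, against 33.1, 26.8, 41.3, 26.2 and 24.6 CPM in Grn HET (log2 fold change 2.34 with SE 0.38, edgeR adjusted p = 0.00366). Anxa2, a calcium-dependent membrane-binding protein, averaged 127 ± 10.2 CPM in Grn KO and 28.3 ± 7.58 CPM in Grn HET (SD, n = 4 and n = 5; log2 fold change 2.07 with SE 0.35, edgeR adjusted p = 0.00524). Ecm1, an extracellular matrix protein, averaged 65.8 ± 11.9 CPM in Grn KO and 13.6 ± 4.21 CPM in Grn HET (log2 fold change 2.22 with SE 0.37, edgeR adjusted p = 0.00460). Pla2g7, the phospholipase that splits platelet-activating factor, averaged 442 ± 77.7 CPM in Grn KO and 97.2 ± 12.1 CPM in Grn HET (log2 fold change 2.07 with SE 0.36, edgeR adjusted p = 0.00648). Cstb, a cytosolic inhibitor of lysosomal cysteine cathepsins, averaged 196 ± 29.1 CPM in Grn KO and 78.2 ± 11.9 CPM in Grn HET (log2 fold change 1.29 with SE 0.23, edgeR adjusted p = 0.00648). Pygl, a glycogen phosphorylase, was at 87.4, 53.4, 79.1 and 91.9 CPM in Grn KO, against 22.8, 13.2, 21.9, 23.5 and 19.7 CPM in Grn HET (log2 fold change 1.86 with SE 0.31, edgeR adjusted p = 0.00479). For the same genes in Tmem106b HET mice, log2 fold changes of Grn KO minus Grn HET were 1.83 for Vim, 1.48 for Anxa2, 2.01 for Ecm1, 2.20 for Pla2g7, 1.13 for Cstb and 2.07 for Pygl, with adjusted p of 0.0347, 0.0518, 0.0192, 0.0134, 0.0269 and 0.00891.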
